A study of Homo sapiens with 4 samples.

Results

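The 10 genes described here encode the NF-κB family of transcription factors and its nearest inhibitors. They were taken by name from the 25066 genes of the deposited table: the 5 subunits NFKB1, NFKB2, REL, RELA and RELB, the 4 IκB-type proteins NFKBIA, NFKBIB, NFKBIE and BCL3, and TNFAIP3, which encodes the deubiquitinating enzyme A20. The rule used their names and no measured value. All 10 were found in the table, all 10 were among the 16945 genes tested, and all were measured with 140 or more reads in every library.

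NF-κB dimers are assembled from the 5 subunits and are held in the cytoplasm by IκB proteins. In the canonical pathway the IκB kinase complex marks IκBα for degradation, which frees dimers such as those of RELA or REL with p50, the product of NFKB1. In the non-canonical pathway the kinase NIK, encoded by MAP3K14, leads to processing of the NFKB2 product p100 to p52, the partner of RELB. Several genes of the family, among them NFKBIA, TNFAIP3 and NFKB2, are themselves NF-κB targets, and in B cells the pathway acts downstream of the antigen receptor, CD40, the BAFF receptor and Toll-like receptors.

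Expression was measured by RNA sequencing of NUDUL1, a human diffuse large B cell lymphoma line of the germinal center B cell-like type. A single-cell clone with doxycycline-inducible Cas9 that had been transduced with Tbxa2r, the thromboxane A2 receptor, carried either a control sgRNA or a sgRNA against GNA13, the gene for the G protein subunit Gα13. Both genotypes received U46619, a thromboxane A2 receptor agonist, at 10 nM for 24 h, and each was measured in 2 libraries with 1 sgRNA per genotype. No untreated cells were among these libraries, and the effect of a guide cannot be told apart from that of the genotype. The labels call the libraries duplicates of a treatment and do not say more, so p values measure the spread between these libraries, which may be technical. The deposited totals of mapped reads were 29209544 and 31537955 in the control libraries and 30141459 and 29685942 in those labelled GNA13-deficient.

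The promoters of the family were read for the κB consensus, the sequence that NF-κB dimers bind, since genes of this family are known to be targets of their own products. RefSeq promoter windows, from 250 bases before to 50 bases after a start site, were given for 8 of the 10 genes (13 windows; RELB and NFKBIE were not among them), and each occurred once in GRCh37. On either strand, 8 of the 13 windows held the consensus (61.5%), against 11.3% of all 35116 promoter windows and 13.3% of those of the genes tested. Some genes gave more than 1 window, so the 13 windows do not stand for 13 genes. The windows compared with were not matched for content of G and C, which ran from 51.33% to 80% in the 13. A stricter pattern, with A or T at the central bases, was held by 6 of the 13 (46.2%) and by 1.87% of all windows. For each of those 6 genes the match is shown here in capitals, 5′ to 3′ on the strand of the gene, within 30 bases of GRCh37.
NFKB1: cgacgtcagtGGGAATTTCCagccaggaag
NFKB2: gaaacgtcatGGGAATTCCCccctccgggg
REL: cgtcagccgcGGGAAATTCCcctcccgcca
NFKBIA: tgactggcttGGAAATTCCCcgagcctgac
NFKBIB: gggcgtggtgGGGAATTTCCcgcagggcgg
TNFAIP3: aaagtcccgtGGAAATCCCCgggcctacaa

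These stretches lie at chr4:103422457-103422486 for NFKB1, chr10:104154218-104154247 for NFKB2, chr2:61108652-61108681 for REL, chr14:35874017-35874046 on the minus strand for NFKBIA, chr19:39390571-39390600 for NFKBIB and chr6:138188331-138188360 for TNFAIP3. The capitals begin 49, 107, 47, 81, 28 and 55 bases before the start sites in that order. BCL3 held the degenerate consensus only, just after a start site, and neither of the 2 RELA windows held a match. A match is a run of letters and not a measured binding site, and no binding was measured here.

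The gene targeted by the sgRNA was read first. GNA13 had log2 values of 12.46 and 12.45 in the control libraries and 13.10 and 13.11 in libraries labelled GNA13-deficient, a difference of 0.65 (SE 0.0506, limma adjusted p = 0.00214). The label's loss of GNA13 was thus not seen as less mRNA, and relative to GAPDH the difference was 0.17 and not called. Counts per gene do not read the sequence at a guide's site, so every direction given here rests on the labels.

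The label of a B cell line was checked against marker genes. The B cell marker PAX5 had log2 values of 12.83, 12.85, 13.01 and 12.83 across the 4 libraries, and the 10 B cell markers together held 75970 and 83832 reads in the control libraries and 66212 and 67131 in those labelled GNA13-deficient, most of all from CD79B. Among 8 T cell markers CD3D, CD3E, CD2 and TRAT1 were listed at 0 throughout, and the list summed to 135 and 188 reads against 25 and 16, with most control reads from CD4 (115 and 175 against 12 and 5). Myeloid markers summed to 259 and 285 reads against 69 and 54, with ITGAM the most abundant in controls (125 and 145 against 3 and 4) and S100A8, S100A9 and FCGR3A at 0, and stromal and epithelial markers to 46 and 50 against 105 and 105, mostly from EPCAM. Of 10 germinal center markers SERPINA9 was listed at 0, 4 were called lower, 5 were not called and none was called higher. The list summed to 42511 and 45013 reads against 35158 and 31786, with MME (-0.02, not called) the most abundant over all libraries. The 4 called lower, named after their values were seen, were LMO2 (-3.70), BCL6 (-2.49), STAP1 (-2.19) and BACH2 (-0.58). Of 8 plasma cell and activated B cell markers 4 were called lower and none higher, among them PRDM1 (-1.85), named after its values were seen, and their sum was 30015 and 30273 reads against 26214 and 23913, with IRF4 the most abundant over all libraries. Across all genes tested 16.6% were called lower. The part of these shifts in the results was not tested. In bulk RNA of a cell line, fewer cells that express a gene and less of its RNA per cell cannot be told apart.

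The family moved in more than one direction between the genotypes. On the deposited scale NFKB2, RELB and NFKBIA were higher in libraries labelled GNA13-deficient, REL was lower, and the other 6 genes did not pass the test, whereas relative to GAPDH the 3 higher genes turned to the lower side and REL stayed lower. The 3 rises were 1.22- to 1.26-fold, and REL stood at 0.657 of its control level. Across all genes tested 29.7% were called (13.1% higher and 16.6% lower), and 4 of 10 members is to be read against that share. The median difference of the 10 members was 0.18 on the log2 scale, compared with -0.02 for all genes tested, and the median absolute difference was 0.27, compared with 0.35.

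**Figure D1:**
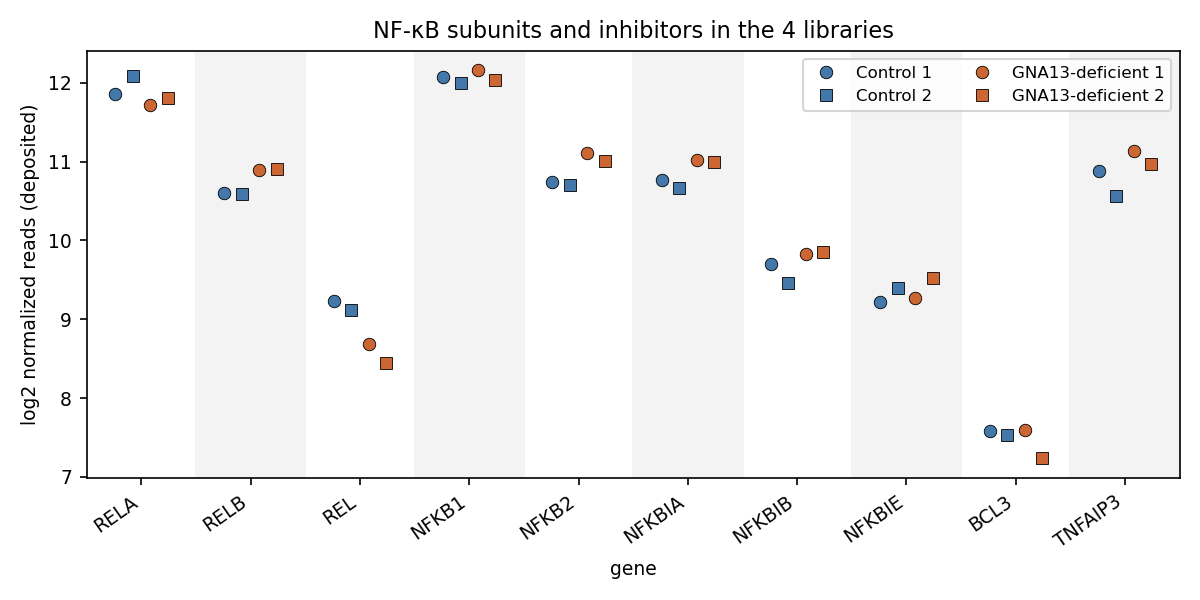
Deposited log2 values (y axis, log2 normalized reads) of the 10 genes in the 2 control libraries and the 2 libraries labelled GNA13-deficient, each point 1 library. On this scale REL and RELA sit lower in both libraries labelled GNA13-deficient, and NFKB2, RELB, NFKBIA, NFKBIB and TNFAIP3 sit higher. NFKB1, NFKBIE and BCL3 overlap. RELA, NFKBIB and TNFAIP3 do not overlap but were not called, and relative to GAPDH the higher genes are lower.

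RELA encodes p65, a subunit with a transactivation domain and the usual partner of p50. The gene lies on the minus strand at chr11:65421070-65430561 (GRCh37). Its log2 values were 11.86 and 12.08 in the control libraries and 11.72 and 11.80 in those labelled GNA13-deficient. Both of the latter were below both controls, but the gap of -0.21 (SE 0.0892, limma adjusted p = 0.149) did not pass the test, and the control libraries differed from each other by about as much. With the replicate number as a block RELA was called at the same difference (limma adjusted p = 0.0284). Relative to GAPDH the difference was -0.70 and was called, whereas with centring on the library median it was 0, since RELA shifted by as much as the medians of the libraries over the genes tested. Part of its exon bases lie under the noncoding RNA RELA-DT of the opposite strand.

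REL encodes c-Rel, the subunit best known from lymphocytes, and lies at chr2:61108626-61158747. The 4 libraries held 590, 563, 401 and 324 reads, with log2 values of 9.23 and 9.11 in controls and 8.69 and 8.45 in libraries labelled GNA13-deficient. Every control library was above every library of the other genotype. The fall was -0.61 (SE 0.114, 95% interval -0.90 to -0.31, limma adjusted p = 0.0185). It was the largest absolute difference of the 10 members on the deposited scale, though not with centring on the median, and the only call in the family to keep its direction under every scaling, at -0.40 with centring on the library median, -0.49 after quantile normalization and -1.09 relative to GAPDH. The annotation places a long noncoding RNA of the same strand over some of its exon bases.

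RELB encodes the subunit that pairs with p52 in the non-canonical pathway and lies at chr19:45504719-45541450. Its log2 values were 10.60 and 10.58 in controls and 10.89 and 10.90 in libraries labelled GNA13-deficient. The libraries of a genotype stood within 0.02 of each other, and this was the tightest of the called members. The difference was 0.30 (SE 0.0517, limma adjusted p = 0.0142), a 1.23-fold rise on the deposited scale that became -0.18 relative to GAPDH and was then not called.

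NFKB2 encodes p100, an inhibitor of RELB until it is processed to p52, and lies at chr10:104153867-104162281. It had log2 values of 10.74 and 10.71 in controls and 11.11 and 11.01 in libraries labelled GNA13-deficient, from 1684, 1697, 2152 and 1910 reads. The groups did not overlap. The difference of 0.33 (SE 0.0617, limma adjusted p = 0.0176) corresponded to a 1.26-fold rise, and it was -0.15 and not called relative to GAPDH.

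NFKB1 encodes p105, the precursor of p50, and lies at chr4:103422487-103538459. Its values of 12.07 and 12.00 in controls and 12.16 and 12.04 in libraries labelled GNA13-deficient overlapped. The difference was 0.06 with a 95% interval from -0.11 to 0.23 (limma adjusted p = 0.542), so a rise of the size seen for NFKB2 or RELB lay outside the interval on the deposited scale. Quantile normalization gave -0.01, and the gene was called in opposite directions with centring on the median (0.27) and relative to GAPDH (-0.43).

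Among the inhibitors, NFKBIA encodes IκBα, which retains NF-κB in the cytoplasm and is resynthesized after activation, and lies on the minus strand at chr14:35870285-35873955. Its log2 values were 10.77 and 10.67 in controls and 11.01 and 10.99 in libraries labelled GNA13-deficient. No value overlapped between genotypes. It was higher by 0.29 (SE 0.0601, limma adjusted p = 0.0251), or 1.22-fold, on the deposited scale, and the difference was -0.20 and not called relative to GAPDH.

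NFKBIB encodes IκBβ and lies at chr19:39390340-39399533, where its exons share bases with SIRT2 on the opposite strand. Its log2 values were 9.70 and 9.46 in controls and 9.83 and 9.86 in libraries labelled GNA13-deficient. They did not overlap, but the spread of the controls was nearly as large as the difference of 0.26 (SE 0.0978, limma adjusted p = 0.108). The libraries were made with a stranded kit, but whether the counting used strand is not given in the sources used here, so the value is uncertain where the genes overlap.

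NFKBIE encodes IκBε and lies on the minus strand at chr6:44225903-44233525. Its values of 9.22 and 9.39 in controls and 9.27 and 9.52 in the other genotype overlapped, with a difference of 0.09 (SE 0.117, limma adjusted p = 0.600). BCL3, which encodes a nuclear IκB protein that acts with p50 and p52 homodimers, lies at chr19:45250962-45263301 and had the fewest reads of the family, 188, 188, 189 and 140. Its difference of -0.14 (SE 0.170, limma adjusted p = 0.585) rested on 1 library labelled GNA13-deficient that stood at 7.24, below values between 7.53 and 7.60 in the other 3. Without that library it was 0.04, and it was also above 0 after quantile normalization (0.15) or centring on the median (0.07).

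TNFAIP3 lies at chr6:138188351-138204451, and the noncoding RNA WAKMAR2 of the opposite strand shares some of its exon bases. A20 removes ubiquitin chains from signaling proteins upstream of the IκB kinase and is inactivated in many lymphomas. The log2 values were 10.88 and 10.57 in controls and 11.14 and 10.97 in libraries labelled GNA13-deficient. The groups did not overlap but the 2 controls were 0.31 apart, and the difference of 0.33 (SE 0.124, limma adjusted p = 0.112), as large as that of NFKB2, did not pass the test. It was called in 3 of the 12 alternatives of filter, scaling or model that kept all 4 libraries, with centring on the median (0.54), with a filter at the median of the means and with the replicate number as a block, and was -0.16 and not called relative to GAPDH (adjusted p from 0.0098 to 0.509 over the 12).

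In all, 7 of the 10 members did not overlap between genotypes, 5 of them higher and 2 lower. Among all genes tested 65.3% did not overlap (31.3% higher and 34.0% lower), so a lack of overlap was common in these libraries. GAPDH itself was 0.49 higher on the deposited scale (log2 values 16.09 and 16.29 against 16.61 and 16.74, limma adjusted p = 0.0502), and ACTB was 0.37 higher (limma adjusted p = 0.205), and -0.12 relative to GAPDH. Of the 11 alternatives run for GAPDH, 9 called it higher, and 3 of 12 called ACTB higher. The median of all genes shifted from -0.02 on the deposited scale to 0.18 with centring on the library median and to -0.51 relative to GAPDH. The share of called genes that were higher shifted with it, from 44.03% to 69.1% and 4.19%. The calls of NFKB2, REL and NFKBIA were also lost without a filter on low genes, and those of all 4 called members without the variance trend. Over the 12 alternatives the limma adjusted p ran from 0.00402 to 0.386 for NFKB2, from 0.00158 to 0.113 for REL, from 0.00459 to 0.265 for RELB and from 0.00498 to 0.261 for NFKBIA, and these genes were called in 9, 10, 10 and 9 of them.

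**Figure D2:**
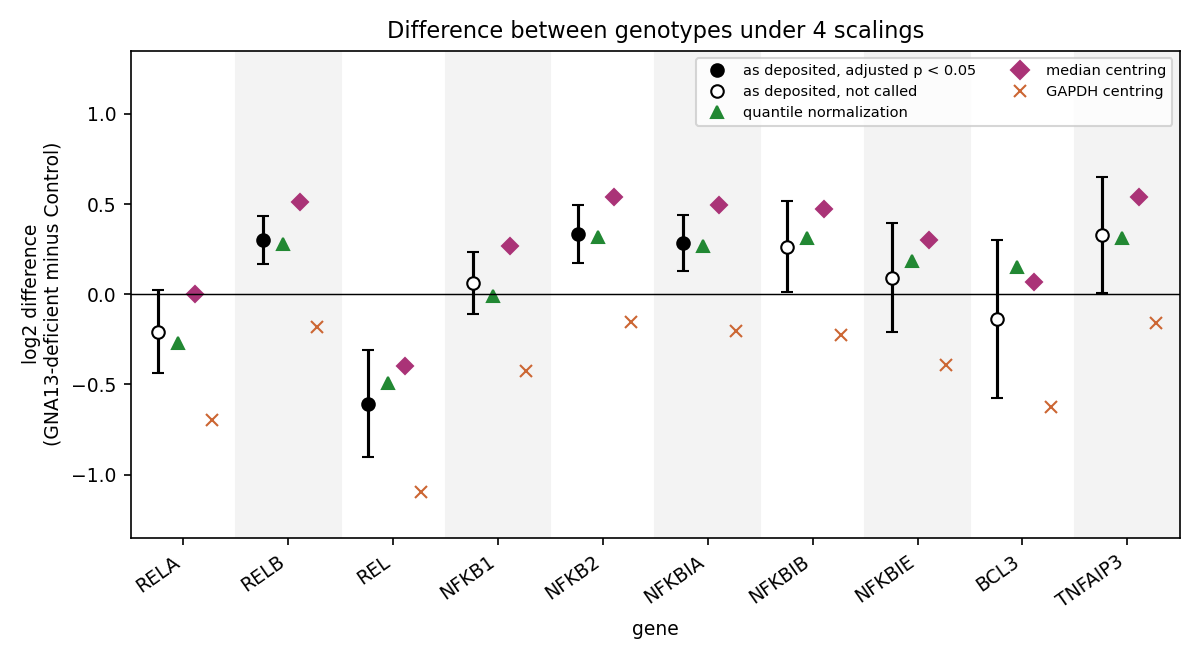
Log2 difference, GNA13-deficient minus control (y axis), of the 10 genes, with 95% confidence intervals from limma on the deposited scale and the same difference under the other scalings of the libraries. REL is on the lower side under each scaling shown, and NFKB2, RELB and NFKBIA are above 0 except relative to GAPDH.

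Ratios within a library do not depend on the constant by which a library was scaled. The log2 ratio of RELB to RELA was -1.26 and -1.50 in controls and -0.83 and -0.90 in libraries labelled GNA13-deficient, a gap of 0.51. That of NFKB2 to RELA was -1.12 and -1.38 against -0.61 and -0.80, a gap of 0.54. The ratio of REL to RELA went the other way, from -2.63 and -2.97 to -3.04 and -3.36, with a gap of -0.40. The balance between members thus differed between the libraries of the genotypes whichever constant is used, with more NFKB2 and RELB and less REL per RELA. Against RELA, 8 of the other 9 members did not overlap between genotypes (7 higher and 1 lower) and BCL3 did (gap 0.07), where 63.7% of all genes tested did not overlap by the same ratio (43.7% of all on the higher side). The inhibitors NFKBIA, NFKBIB and NFKBIE had gaps of 0.49, 0.47 and 0.30, and TNFAIP3 of 0.54. Since RELA is in the denominator of each, these gaps share its difference of -0.21, and they equal the differences with centring on the library median. With NFKB1 in its place the gaps were 0.27 for NFKB2, 0.24 for RELB, -0.67 for REL and 0.23 for NFKBIA. BCL3 then did not overlap and had the other sign (-0.20), NFKBIE overlapped (0.03), and 61.1% of all genes tested did not overlap. With 2 libraries against 2 the smallest 2-sided p of an exact permutation test is 0.333, so no such test of a single ratio could reach 0.05.

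**Figure D3:**
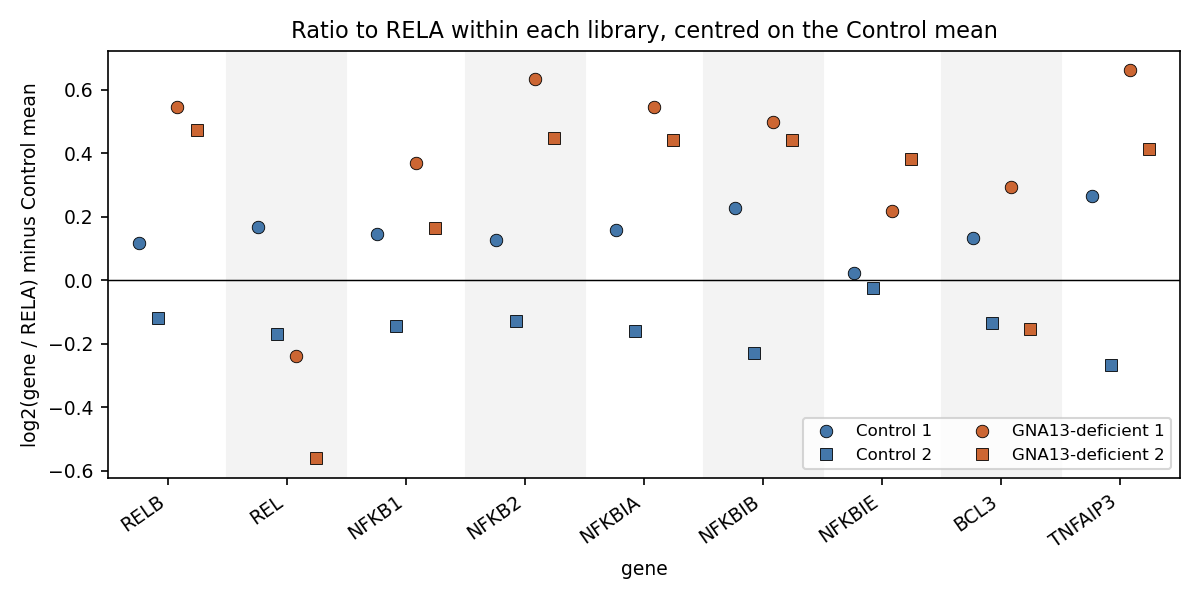
Log2 ratio of each member to RELA in the same library, less the mean of the 2 control libraries for that member (y axis), each point 1 library, for the 2 control libraries and the 2 labelled GNA13-deficient. The ratio of REL is lower in both libraries labelled GNA13-deficient, that of BCL3 overlaps, and the ratios of the other members, NFKB2 and RELB among them, are higher in both.

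Levels were compared between genes per kb of the longest annotated transcript, as log2 normalized reads per kb, since longer transcripts give more reads. In the control libraries RELA had the highest mean level at 10.30, followed by RELB at 9.42, NFKBIA at 9.36, NFKB1 at 9.22, NFKB2 at 8.95, NFKBIB at 8.44, TNFAIP3 at 8.28, NFKBIE at 7.94, BCL3 at 6.65 and REL at 5.68. The control libraries of RELB and NFKBIA overlapped, as did those of NFKBIB and TNFAIP3, and the other neighbours in this order did not. In libraries labelled GNA13-deficient the order was the same but for NFKB1 and NFKB2, which changed places at means of 9.28 and 9.29. Their libraries overlapped there, so these 2 genes had no distinct order. With the median transcript length RELA stayed first, BCL3 ninth and REL last, while NFKB1 and NFKB2 moved ahead of RELB and NFKBIA, and NFKBIE and TNFAIP3 changed places. The order between these genes therefore rests on which transcript is taken.

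Summed per length over the 5 subunits, RELA made up 38.6% and 43.0% of the subunit level in control libraries and 32.8% and 35.1% in those labelled GNA13-deficient. RELB made up 22.8% and 21.5% against 25.96% and 26.5%, and NFKB2 16.6% and 15.5% against 20.02% and 18.8%. The RELB and NFKB2 shares were thus higher and the RELA share lower in both libraries of the second genotype. NFKB1 overlapped, at 20.2% and 18.4% against 20.1% and 18.6%. REL was the smallest share throughout, with 1.76% and 1.56% against 1.13% and 0.967%. The sizes depend on the length taken: with median transcript lengths RELA made up 44.5% and 49.1% against 38.5% and 41.2%, RELB 15.03% and 14.1% against 17.5% and 17.8%, and NFKB2 16.5% and 15.2% against 20.3% and 19.03%, with the same directions. These shares concern mRNA and not the proteins or their dimers.

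**Figure D4:**
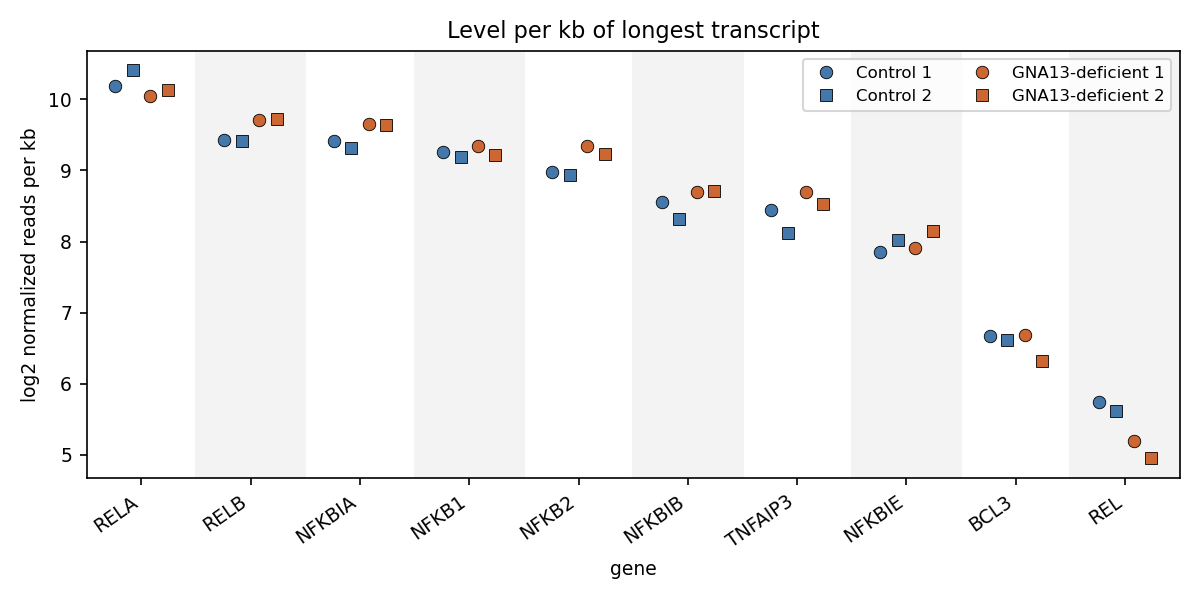
Level of each member per kb of its longest transcript (y axis, log2 normalized reads per kb), ordered by the control mean, each point 1 library. RELA is at the top near 10.30 and REL at the bottom near 5.68 in controls, and the control points of RELB and NFKBIA overlap.

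The rest of the pathway was described from lists of receptors and ligands, of adaptors and kinases, of negative regulators and atypical IκB proteins, and of NF-κB targets. Of their 152 genes 138 were tested, and 22 were called higher and 29 lower, or 37% beside 29.7% of all genes. Their median difference was -0.03, beside -0.02.

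Of 22 receptors and ligands 19 were tested, with 6 higher, 3 lower and 10 not called and a median difference of 0.38. Of the tested genes 47.4% were called, beside 29.7% of all genes. Relative to GAPDH 2 were called higher and 5 lower, with a median of -0.11. LTBR was listed at 0 in every library, and TNFRSF11A and IL1R1 held 2 reads or fewer, and these 3 are named because they were not tested. Of 6 tested genes of Toll-like receptors, which sense microbial products, 3 were called higher, and TLR1 (0.08), TLR6 (0.58) and TLR7 (0.15) were not called and are named to complete the count, after their values were seen. Across all genes tested 13.1% were called higher. TLR10 was at 8.77 and 8.64 in controls and 9.87 and 10.15 in libraries labelled GNA13-deficient (difference 1.31, SE 0.120, limma adjusted p = 0.00291), TLR2 rose by 1.49 and TLR9, the receptor for CpG DNA, by 0.77, or 0.28 and not called relative to GAPDH. The differences of TLR10 and TLR2 relative to GAPDH were 0.82 and 1, both called. LTB, which encodes lymphotoxin β, a ligand that acts through the non-canonical pathway, was higher by 1.08 from 40, 43, 81 and 86 reads, or by 0.59 and not called relative to GAPDH. The other two called higher, named here after their values were seen, were CD40 (0.47, limma adjusted p = 0.0192) and TNFRSF13B, the gene for TACI (0.38, limma adjusted p = 0.0120), at -0.02 and -0.11 relative to GAPDH. TNFRSF13C, which encodes the BAFF receptor, fell from 8.54 and 8.44 to 7.60 and 7.15 (difference -1.12, SE 0.180, limma adjusted p = 0.0121), and TNFRSF17, which encodes BCMA, had a difference of -0.59, a call lost in 3 of the 12 alternatives (-0.39 with centring on the median). The largest difference of the list was that of TNFRSF1A, the gene for TNF receptor 1, with 97 and 116 reads in controls and 9 and 10 in the other genotype (difference -3.41, SE 0.285, limma adjusted p = 0.00239).

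All 35 adaptors and kinases were tested, and 4 were called higher, 8 lower and 23 not, or 34.3% called beside 29.7% of all genes. The median difference was -0.13, or 0.08 with centring on the median. That centring called 13 higher and 6 lower, and relative to GAPDH 0 were higher and 23 lower. The subunits of the IκB kinase complex did not pass the test on the deposited values: CHUK (IKKα) differed by 0.15 (limma adjusted p = 0.107), IKBKB (IKKβ) by 0.21 (limma adjusted p = 0.179) and IKBKG (NEMO), whose reads a near-identical pseudogene may share, by 0.56 (limma adjusted p = 0.0549). Of the 12 alternatives, 9 called IKBKG, 2 called IKBKB and 1 called CHUK, all with a higher value, and relative to GAPDH the 3 differences were 0.08, -0.27 and -0.34 and not called. MAP3K14 fell by 0.32 on the log2 scale (limma adjusted p = 0.0436), a call that was lost in 4 of the 12 alternatives, at -0.12 with centring on the median and -0.22 after quantile normalization among them (adjusted p from 0.00685 to 0.313 over the 12). Of the proteins that hold NIK at a low level, TRAF3 was higher by 0.24 (limma adjusted p = 0.0431), a difference of -0.25 relative to GAPDH, and TRAF2 by 0.51, or 0.02 and not called relative to GAPDH, whereas BIRC2, which encodes the ubiquitin ligase cIAP1, was at 10.42 and 10.28 in controls and 9.41 and 9.60 in libraries labelled GNA13-deficient (difference -0.85, SE 0.0971, limma adjusted p = 0.00487). Relative to GAPDH BIRC2 was at -1.33. IRAK1, a kinase of Toll-like receptor signaling, and UBE2N, a ubiquitin-conjugating enzyme, were higher by 0.48 and 0.37, differences of -0.01 and -0.11 relative to GAPDH. TRAF3 and UBE2N were each called in 8 of the 12 alternatives. The other named falls were IRAK2 at -2.11, TRAF1 at -1.18 and MAP3K8, the kinase that binds p105, at -1.06, each from 67 reads or fewer in every library. After quantile normalization TRAF1 was at -0.71 and MAP3K8 at -0.61, both not called.

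Of 23 negative regulators and atypical IκB proteins 22 were tested, with 5 higher, 3 lower and 14 not called, or 0 higher and 9 lower relative to GAPDH. On the deposited scale 36.4% were called, beside 29.7% of all genes. CYLD, a deubiquitinase that limits NF-κB signaling, was at 11.72 and 11.61 in controls and 12.14 and 12.04 in libraries labelled GNA13-deficient (difference 0.43, SE 0.0680, limma adjusted p = 0.0114). OTUD7B, a deubiquitinase of TRAF3, rose by 1.12 from 96 and 91 to 220 and 169 reads, or by 0.63 and not called relative to GAPDH. ITCH and RNF11, which work with A20, were higher by 0.36 and 0.35, and like CYLD (-0.06) were below 0 relative to GAPDH, at -0.12 and -0.13. TAX1BP1 and TNIP1, which encodes ABIN1, are also partners of A20 and were lower, at -0.75 (limma adjusted p = 0.00835) and -0.29 (limma adjusted p = 0.0229). TNIP2 of the same list, named after its values were seen, was at -0.24 and not called (limma adjusted p = 0.106), and TNIP3 was not tested. Relative to GAPDH TAX1BP1 was at -1.24 and TNIP1 at -0.78, and with centring on the median TNIP1 was -0.08 and not called. IRAK3 was called lower at 3 and 4 reads against 1 and 1, which is at the floor of 3 reads. This call held in 5 of the 11 alternatives run for IRAK3, and with a pseudocount of 10 the difference was -0.29 and not called. The remaining gene called higher, named after its values were seen, was FAM105B, the symbol in the table for the linear-chain deubiquitinase OTULIN (0.24, limma adjusted p = 0.0285), at -0.24 relative to GAPDH.

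Of 79 NF-κB targets 69 were tested, with 9 higher, 16 lower and 44 not called. These calls were 36.2% of the tested targets, beside 29.7% of all genes tested (13.1% higher and 16.6% lower). The balance turned with the scaling, to 15 higher and 11 lower after quantile normalization, 13 and 10 with centring on the median, and 2 and 37 relative to GAPDH. The median difference was -0.07, or 0.14 with centring on the median. The costimulatory ligand gene CD86 had the largest difference among them, with 385 and 371 reads in controls and 22 and 26 in libraries labelled GNA13-deficient (-3.91, SE 0.197, limma adjusted p = 0.00108). CXCR5, the chemokine receptor of B cell follicles, had a difference of -2.71, IL2RA, a chain of the interleukin-2 receptor, of -2.10, and RGS1, a regulator of G protein signaling, of -1.83. In the other direction CCND3, which encodes cyclin D3, went from 13.02 and 13.15 to 14.32 and 14.45 (1.30, SE 0.0825, limma adjusted p = 0.00157), and FAS, a death receptor, rose by 0.96, a call lost in 3 of the 12 alternatives (0.47 relative to GAPDH). Relative to GAPDH CCND3 was at 0.81 and still called. LTB is on this list too, and SDC4 was called higher at 2 and 2 reads against 7 and 9. Targets of the pathway were called in both directions, as were genes in general. IRF4, a target and a factor of plasma cell differentiation that was named after its values were seen, had 13142 and 12708 reads against 10498 and 9221 (-0.32, limma adjusted p = 0.0309, and -0.12 and not called with centring on the median).

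**Figure D5:**
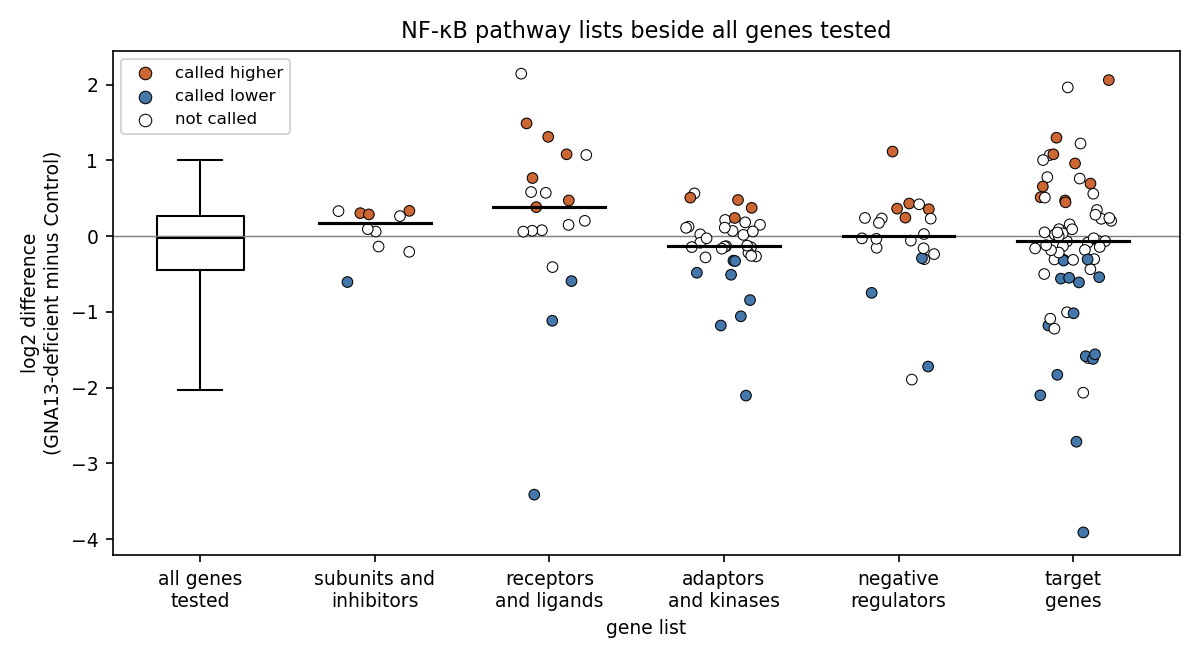
Log2 differences, GNA13-deficient minus control (y axis), of the tested genes of the 10 members and of the 4 pathway lists on the deposited scale, each point 1 gene colored by its call and each bar a median, beside a box of quartiles of all genes tested with whiskers at percentiles 5 and 95. Every list holds genes called in both directions, and the medians lie between -0.13 and 0.38, a range that shifts downward relative to GAPDH.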

How the data were processed

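RNA was sequenced from NUDUL1 cells in 2 libraries per genotype. Per the methods the authors used STAR with hg19, the submitters' processing notes name HTSeq, and the authors deposited normalized log2 values with a linear row of library totals, and that row served for depth only. The annotation and the scaling were not given in the sources used here. Stepped low values gave whole reads for 100% of values up to 400 reads (tolerance 0.02 reads or 1.5 rounding errors).

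limma 3.58.1 in R 4.3.3 was fitted (lmFit, eBayes with trend, genotype only, 2 residual degrees of freedom) to the 16945 genes above 0 in at least 2 libraries, with no pseudocount, and p values were adjusted by Benjamini-Hochberg over them (threshold 0.05). The steps were tested on simulated data. Alternatives covered filters, pseudocounts of 1 and 10, scaling, replicate block, variance prior, voom on recovered reads and leaving out each library. Coordinates and lengths came from GENCODE 44 on GRCh37, promoters from RefSeq (GRCh38.p14), placed on GRCh37 by exact match.

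Members, lists and tests were chosen with earlier results of these data known. Named were GNA13, the members, the IκB kinase subunits, MAP3K14, TRAF3, markers, GAPDH, ACTB and, per list, up to 4 genes called in each direction with the largest differences, no overlap and 3 or more reads in a genotype. Other names were chosen after their values were seen.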

Additional observations from a re-analysis of the deposited data

How the results depend on the processing

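Results below rest on 2 libraries per genotype, and the precision of BCL3, at 140 to 189 reads, is limited by depth more than that of the other members. Relative to GAPDH, values turned below 0 for NFKB1 (-0.43), NFKB2 (-0.15), RELB (-0.18), NFKBIA (-0.20), NFKBIB (-0.22), NFKBIE (-0.40), TNFAIP3 (-0.16), ACTB (-0.12), CHUK (-0.34), CYLD (-0.0575), IKBKB (-0.27), IRAK1 (-0.0105), ITCH (-0.12), RNF11 (-0.13), TRAF3 (-0.25), UBE2N (-0.11), CD40 (-0.017), TNFRSF13B (-0.11) and FAM105B (-0.24), the median of the members was -0.31 and that of receptors and ligands -0.11, RELA was called at -0.70 and NFKB1 too, GNA13 was uncalled at 0.17, and 7618 genes were called in all, with 23 adaptors and kinases and 39 targets. With centring on the median NFKB1 (0.27), NFKBIB (0.47) and TNFAIP3 (0.54) were called, BCL3 was 0.0695, 7 members and 19 adaptors and kinases were called, and the list medians were 0.082 for adaptors and kinases, 0.21 for negative regulators and 0.14 for targets. Quantile normalization gave NFKB1 -0.012, BCL3 0.15, and medians of 0.22 for negative regulators and 0.0025 for targets. Without the filter 1999 genes and 1 member were called, NFKB2 (0.33), REL (-0.61) and NFKBIA (0.29) were lost, and the lists kept 1 receptor or ligand, 4 adaptors and kinases, 1 negative regulator and 8 targets. Without the variance trend 2718 genes and 0 members were called, RELB (0.30) was lost too, and the lists gave 5, 8, 2 and 14 calls in the same order. A filter at the median of the means brought TNFAIP3 (0.33) past the threshold and the median of negative regulators to 0.0265, and voom on recovered reads brought that median to 0.000333. With median transcript lengths the members spanned 5.22 in place of 4.62 log2 units per kb, and ratios to NFKB1 in place of RELA gave 0.27 for NFKB2, -0.667 for REL, 0.2425 for RELB, 0.2255 for NFKBIA, 0.2035 for NFKBIB, 0.032 for NFKBIE and -0.20 for BCL3. Among named genes outside the family, over the alternatives with all 4 libraries, 377 values kept direction and call, 64 lost a call with the same sign, 24 gained one and 12 changed sign, most of these with a lost call. The causes of these changes were not tested. The sources do not pair libraries by number. Deviations of same-numbered libraries correlated at 0.453 over 8473 genes, and with the replicate block 6616 genes and 6 members were called, with RELA (-0.21) and TNFAIP3 (0.33) added.

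Leaving out 1 library at a time left 1 residual degree of freedom, with the lone library assumed to vary like the others, and limma called 0 genes in all 4 fits (5257 to 5600 at an unadjusted p under 0.05, 3 to 6 of them members), so the counts of members and of every list were 0. The differences ranged from 0.648 to 0.659 for GNA13, -0.0015 to 0.1215 for NFKB1, 0.281 to 0.385 for NFKB2, -0.727 to -0.487 for REL, 0.29 to 0.3115 for RELB, 0.236 to 0.34 for NFKBIA, -0.3175 to -0.0985 for RELA, 0.1445 to 0.3825 for NFKBIB, 0.1735 to 0.4855 for TNFAIP3, -0.032 to 0.22 for NFKBIE and -0.3205 to 0.0435 for BCL3. IKBKG ranged from 0.34 to 0.79 and IKBKB from 0.10 to 0.32. The median of negative regulators ranged from 0.002 to 0.06575, that of adaptors and kinases from -0.1425 to -0.045 and that of targets from -0.115 to -0.0425, and the span of levels per kb from 4.45 to 4.79. The ratio of BCL3 to RELA ranged from -0.15 to 0.29, that of REL from -0.57 to -0.23, of NFKB1 from 0.12 to 0.41, of NFKBIB from 0.24 to 0.70 and of TNFAIP3 from 0.27 to 0.80, and the other differences and ratios kept their direction.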
